A study of Rattus norvegicus with 1 sample.

Results

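Long stretches of rat chromosomes 15, 17 and 18 held few sequence tags in the control DNA that the study of Pax8 binding sequenced alongside its immunoprecipitated DNA. These stretches are described here in non-overlapping bins of 100 kb, on chromosome 15 from 53 Mb to the last tag, on chromosome 17 from 50 Mb to the last tag and on chromosome 18 from its start to 34 Mb. They comprised 1381 bins of 27197 on the autosomes and X, or 5.08% of the bins, and held 131794 distinct tags, or 2.24% of the distinct tags there. The regions were chosen by low tag density, after allowance for the share of repeated tags, in an earlier analysis of the same library. Their low density is therefore a description and not a finding, and no test is attached to it.

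The DNA came from PCCl3 cells, an established line of rat thyroid follicular cells, grown with thyrotropin and other hormones and fixed with formaldehyde. The protocol then has the chromatin sonicated. The only group was input DNA, with 1 library and no antibody selection. Fragments of about 200 bp were amplified by 18 cycles of PCR and sequenced as tags of 50 bp. The label calls the sample input DNA without antibody and the series places its sampling directly ahead of the Pax8 precipitation, whereas the methods of the study describe an input taken before sonication and, separately, non-immunoprecipitated DNA taken directly ahead of the precipitation. The methods give the former a use as normalization sample and name the latter as sequenced and as the control for peak calling. The sampling point given with the series is that of the latter, although the label reads input DNA, and which of them was deposited is not settled here. Without replicates no error between samples can be given. Intervals are exact at the 95% level and cover counting error only. They take tags as independent and any expected count as fixed, although counts varied along the genome by more than Poisson counting gives. Repeated tags can be PCR copies, which are not independent molecules either.

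DNA that has not been immunoprecipitated samples the genome of the cells as it stands. The number of tags that fall on a region depends on how many copies of it the cells carry, on how much of its sequence can be aligned, and on how well its fragments survive sonication, size selection and amplification, which differ with base composition. A control library is used in peak calling because these influences act on immunoprecipitated DNA as well. A tag count alone does not separate them. Chromosome bands, centromeres and genes of the rn4 build were not used here, so the stretches are called regions rather than arms.

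In the list of 6714002 tags, 6597862 lay on the autosomes and X, at 5891336 distinct positions and strands. A distinct tag was 1 tag per 5′ end and strand, and the share of repeated tags was the percentage of tags beyond the first at such a place. Bins were kept when at least 8 of their 10 bins of 10 kb held a tag. This retained 533 of 568 bins on chromosome 15, 420 of 473 on chromosome 17 and 314 of 340 on chromosome 18. The share kept was 93.8%, 88.8% and 92.4% in the regions and 92.4% on the 17 other autosomes, but only 83.96% in the rest of chromosome 15, against 93.6% and 94.2% in the rest of chromosomes 17 and 18. Empty 10 kb bins made up 5.65% of the chromosome 15 region, 8.48% of the chromosome 17 region and 6% of the chromosome 18 region, against 5.94% of the other autosomes and 11.7% of the rest of chromosome 15. The longest stretch without a tag was 490 kb, 330 kb and 270 kb in turn.

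The region of chromosome 15 ran from 53000001 to a last 5′ end at 109757293 (1-based, rn4) and held 43778 distinct tags in its kept bins (Poisson 95% interval 43369 to 44190). A kept bin there held 82.1 distinct tags on average, with a median of 65, quartiles of 50 and 100, and a range of 24 to 287. The region of chromosome 17 ran from 50000001 to a last 5′ end at 97288332 and held 48473 (48042 to 48907), a mean of 115 per bin with a median of 103.5, quartiles of 73 and 141, and a range of 45 to 525. On chromosome 18 the region ran from 1 to 34000000 and held 34848 (34483 to 35216), with a mean of 111, a median of 101, quartiles of 69 and 147 and a range of 24 to 292. The chromosome 15 region was thus the sparsest in counts, and the other two were close to each other. Bins of the 17 other autosomes held 245.5 distinct tags on average and a median of 200.

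Each region was first set against the rest of its own chromosome, which passed through the same library. The rest of chromosome 15 held 253 distinct tags per bin, that of chromosome 17 held 271 and that of chromosome 18 held 221. The ratio of region to rest was 0.325 on chromosome 15 (exact conditional 95% interval 0.321 to 0.329), 0.425 on chromosome 17 (0.421 to 0.430) and 0.503 on chromosome 18 (0.497 to 0.509). With no bins left out the ratio of chromosome 15 was 0.363. These ratios did not agree. The highest was 1.55 times the lowest, and none of the intervals, which cover counting error only, overlapped.

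Density and the share of repeated tags rise together along this genome, so the regions were next compared with bins of like repeated share. For each bin the share was taken over 11 bins centred on it, and the expectation was the mean count of the 1000 bins nearest in that share on the 17 other autosomes. Only 1068 bins of those autosomes had a share under 5%, so the matching was coarse there. This concerns 103 kept bins of the chromosome 15 region and 16 of the chromosome 17 region. With the 200 nearest bins the matched ratio of chromosome 15 was 0.491. The repeated share was 7.71% in the chromosome 15 region (Clopper-Pearson 95% interval 7.47% to 7.95%) and 10.2% in the rest of that chromosome (10.0% to 10.3%). It was 8.59% in the chromosome 17 region (8.35% to 8.83%) against 10.5% in the rest (10.3% to 10.7%). On chromosome 18 the region and the rest were close, at 9.61% (9.32% to 9.91%) and 9.77% (9.61% to 9.94%). By the matching alone, a bin of the region was expected to hold 0.654 times as many tags as a bin of the rest on chromosome 15, 0.781 times on chromosome 17 and 1.03 times on chromosome 18. The order of these values is the order of the ratios within chromosomes.

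Against the matched expectation the regions lay at 0.490 on chromosome 15 (Poisson 95% interval 0.486 to 0.495), 0.563 on chromosome 17 (0.558 to 0.568) and 0.470 on chromosome 18 (0.465 to 0.475). The rest of the same chromosomes lay near the expectation, at 0.986 (0.981 to 0.992), 1.03 (1.03 to 1.04) and 0.962 (0.956 to 0.968). Dividing region by rest on this scale gave 0.497 (0.492 to 0.503) for chromosome 15, 0.545 (0.539 to 0.550) for chromosome 17 and 0.489 (0.483 to 0.494) for chromosome 18. The highest was 1.20 times the lowest, and 1.11 times after division by the rest. The regions were chosen on a density adjusted in this way, so how near these ratios lie to each other is partly set by the choice and is given as a description.

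**Figure D1:**
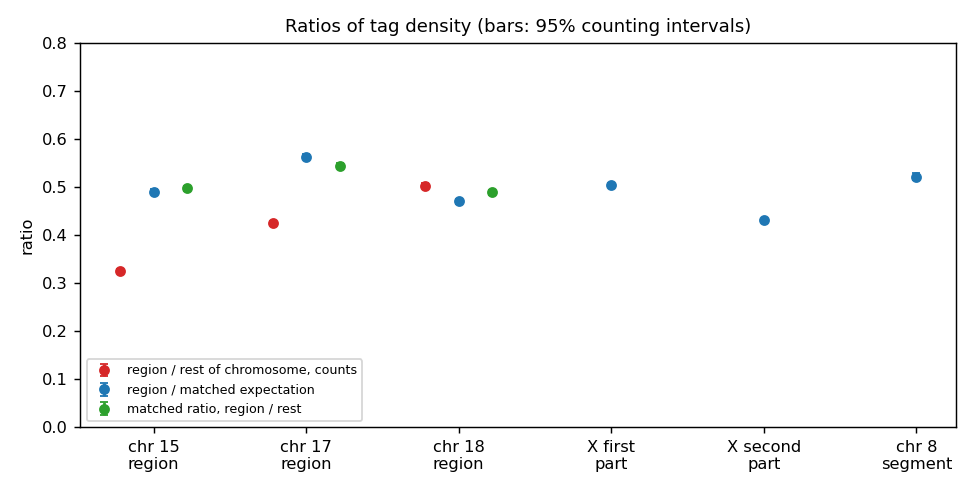
Ratio of tag density (vertical axis, linear from 0) for the 3 regions, the 2 parts of chromosome X and the chromosome 8 segment from 54 to 67 Mb, with 95% counting intervals that are mostly smaller than the points. Red points compare counts with the rest of the chromosome and spread from 0.325 to 0.503. Blue points compare with the matched expectation, with the 3 regions between 0.470 and 0.563, and green points divide region by rest on that scale and lie between 0.489 and 0.545.

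On counting error alone the 3 matched ratios still differed. Chromosome 15 was 1.04 times chromosome 18 (exact conditional 95% interval 1.03 to 1.06), chromosome 17 was 1.20 times chromosome 18 (1.18 to 1.21), and chromosome 15 was 0.872 times chromosome 17 (0.860 to 0.883). The order of chromosomes 15 and 18 turned round under 3 alternatives, with 0.428 and 0.466 when only the share of the bin itself was matched, 0.481 and 0.486 with medians, and 0.475 and 0.479 with bins of 1 Mb. Counting error is not the only spread that matters here, since whole chromosomes varied as well. The matched ratio of the 17 other autosomes ran from 0.883 on chromosome 12 to 1.23 on chromosome 10, a span of 1.40 times. A range over 17 chromosomes is wider by nature than one over 3 regions, so the 2 spans are not compared.

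Levels by class of repeated share are given as a description, since the regions were chosen for low density at a given share. In the class from 5% to 7%, a bin of the other autosomes held 134 distinct tags on average, and bins of the regions of chromosomes 15, 17 and 18 held 61.5, 83.8 and 67.9. In the class from 7% to 9% the other autosomes held 200.3, and the regions held 93.6, 111 and 91.8. In the class from 9% to 11% the other autosomes held 271, and the regions held 139, 147 and 137. As ratios, the regions lay between 0.459 and 0.625 in the first of these classes, between 0.458 and 0.555 in the second and between 0.507 and 0.544 in the third. The class of 11% or more is open upward, and there the rest of the 3 chromosomes also fell below the other autosomes, at 0.802 to 0.898, while the regions lay at 0.356 to 0.456. Within the chromosome 15 region most bins had a low share, with 103 under 5% and 219 from 5% to 7%. The chromosome 18 region had 102 bins from 9% to 11% and 56 at 11% or more.

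**Figure D2:**
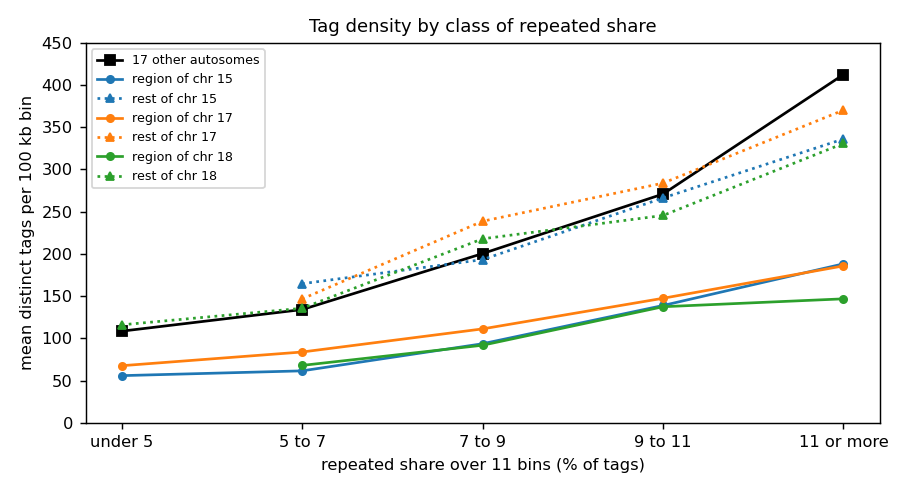
Mean distinct tags per 100 kb bin (vertical axis) by class of the repeated share over 11 bins (horizontal axis, percent of tags). Circles and solid lines are the 3 regions, triangles and dotted lines the rest of the same chromosomes, and black squares the 17 other autosomes. In every class shown the regions lie below both, while the rest of the chromosomes lies at 0.906 to 1.23 times the other autosomes in the 3 classes from 5% to 11%.

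The same ratio was then described over the distribution of kept bins, from which sparsely occupied bins had been left out. Among the other autosomes the ratio of a bin to its expectation was 0.601 at the 10th percentile, 0.957 at the median and 1.46 at the 90th percentile. In the chromosome 15 region the corresponding values were 0.306, 0.460 and 0.724. Divided by the other autosomes these gave 0.510, 0.481 and 0.495. The same quotients were 0.567, 0.558 and 0.570 for chromosome 17 and 0.454, 0.488 and 0.457 for chromosome 18. At the quartiles they were 0.486 and 0.486, 0.555 and 0.546, and 0.492 and 0.479. Over the kept bins the quotients thus ranged from 0.481 to 0.510 on chromosome 15, from 0.546 to 0.570 on chromosome 17 and from 0.454 to 0.492 on chromosome 18.

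Among kept bins, 490 of 533 (91.9%) on chromosome 15, 355 of 420 (84.5%) on chromosome 17 and 301 of 314 (95.9%) on chromosome 18 lay under 0.75 of the expectation. The background for that rule of size was 23.7% of the bins of the other autosomes, and the rest of the 3 chromosomes gave 24.0%, 15.6% and 24.9%. These shares rest on the contrast that chose the regions and are given as a description, and neighbouring bins are not independent. Bins at or above the expectation made up 44.6% of the other autosomes. There were 17 of them in the chromosome 17 region and 2 in the chromosome 18 region, and the highest bin of the chromosome 15 region reached 0.965.

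The bins farthest from the level of their region were looked at singly. On chromosome 15 the 3 lowest bins were close together. The bin from 66000001 to 66100000 held 30 distinct tags, a ratio of 0.182 (Poisson 95% interval 0.123 to 0.260). The bin from 65800001 to 65900000 held 38 and the bin from 65300001 to 65400000 held 34, at ratios of 0.190 and 0.193. On chromosome 18 the lowest bins lay at the very start of the sequence. The bins from 400001 to 500000 and from 600001 to 700000 each held 24 distinct tags and had ratios of 0.0765 and 0.0780, and the first bin of the chromosome held 38 at a ratio of 0.102. In these 3 bins at least 9 of 10 bins of 10 kb were occupied, so they were thinly covered along their length. Their own repeated shares were 7.69%, 11.1% and 5%, against 11.4%, 11.2% and 12.6% over the 11 bins that set the expectation. Those 11 bins are cut short by the chromosome end for the first bin. The low ratios of the first bin and of the bin from 400001 thus rest partly on the shares of their neighbours. The lowest bins of chromosome 17 were scattered, starting at 58600001, 74300001 and 95400001, with ratios of 0.211, 0.215 and 0.216.

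The highest bins of the chromosome 17 region exceeded the expectation. The bin from 93000001 to 93100000 held 525 distinct tags at a ratio of 1.74 (Poisson 95% interval 1.60 to 1.90), and its neighbour up to 93200000 held 497 at 1.68. The bin from 54000001 to 54100000 held 315 at 1.66. On chromosome 18 the highest bin ran from 8200001 to 8300000 and held 191 at 1.52 (1.31 to 1.75). Runs of at least 3 adjacent bins at 0.75 or more of the expectation numbered 5 on chromosome 15, 11 on chromosome 17 and 1 on chromosome 18. The longest was on chromosome 17 from 92700001 to 93700000, where 10 bins held 3618 distinct tags at a ratio of 1.24. The regions differ in size, with 533, 420 and 314 kept bins, and 4 of the 11 runs of chromosome 17 lay between 52000001 and 54200000. Kept bins at 0.75 or more numbered 43, 65 and 13 in the regions, against 15957 of 20921 on the other autosomes. Runs were not counted outside the regions, so their numbers have no background and are a description.

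**Figure D3:**
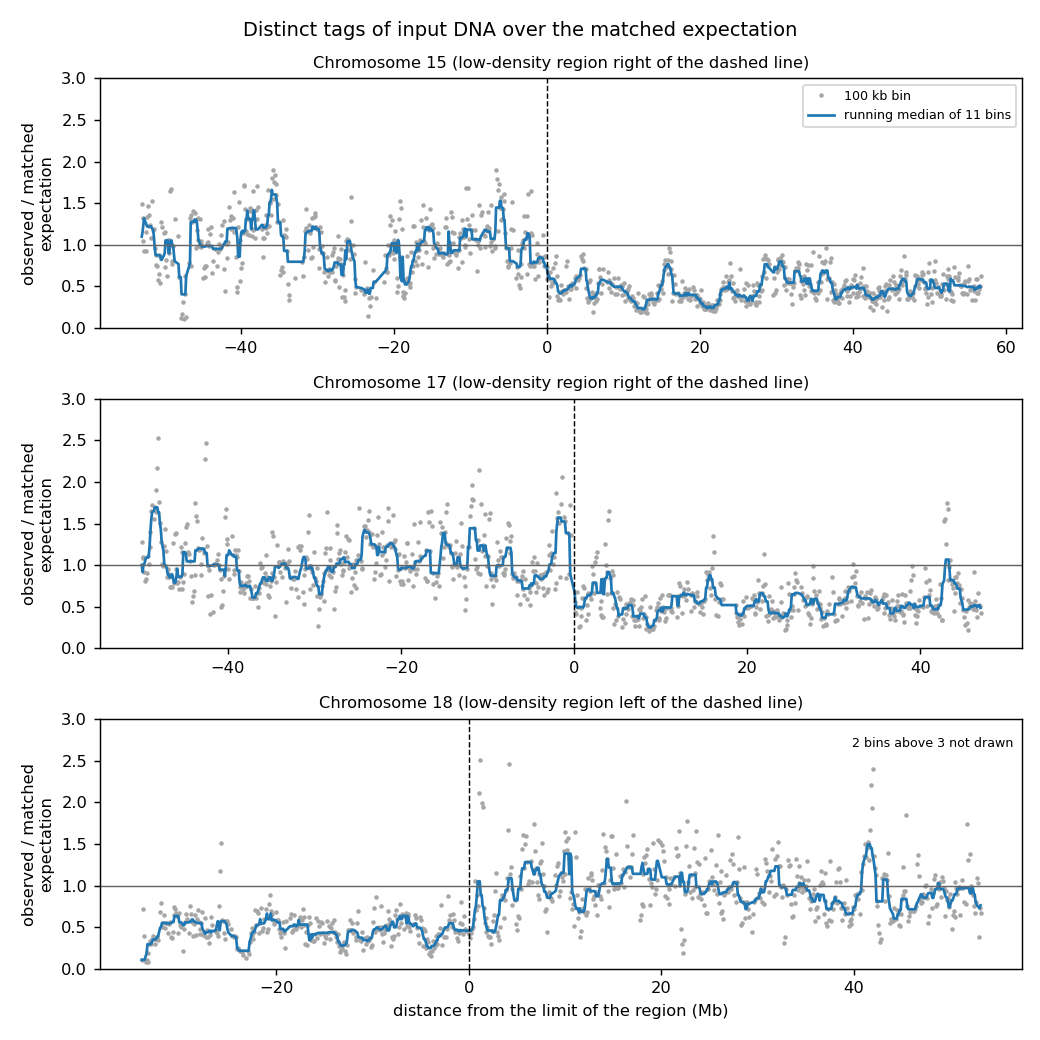
Distinct tags over the matched expectation (vertical axis, linear) against distance from the limit of each region in Mb (horizontal axis) on chromosomes 15, 17 and 18. Grey points are 100 kb bins, the blue line is the running median of 11 bins, and the dashed line is the limit. The low-density regions, right of the limit on chromosomes 15 and 17 and left of it on chromosome 18, lie mostly under 0.75, while the rest scatters around 1. Bins above 3, which lie on the rest of chromosome 18, are not drawn.

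Blocks of 5 Mb with at least 20 kept bins, counted from the start of each region, show how level the regions were. Matched ratios of the 7 blocks of chromosome 18 ran from 0.422 to 0.526, with a median of 0.474 and an SD over blocks of 0.0359. The 11 blocks of chromosome 15 ran from 0.336 to 0.616 around a median of 0.489, with an SD of 0.0866. The 10 blocks of chromosome 17 ran from 0.398 to 0.769 around a median of 0.543, with an SD of 0.103. In counts the blocks varied more, by 1.71 times on chromosome 18, 3.34 times on chromosome 15 and 2.28 times on chromosome 17, against 1.25, 1.84 and 1.93 times in matched ratios. All blocks lay under 0.75 except the one of chromosome 17 from 90000001 to 95000000, which holds the run of high bins. Of the 454 blocks of the other autosomes, 5.29% lay under 0.75, and the SD over them was 0.188 around a mean of 0.998. The SDs of the regions belong to lower means, 0.471 on chromosome 18, 0.482 on chromosome 15 and 0.556 on chromosome 17. These SDs are therefore not compared directly with that of the other autosomes. In the rest of chromosomes 15, 17 and 18 the SDs were 0.128, 0.119 and 0.0873 around means of 0.983, 1.06 and 0.975.

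The highest 2 blocks of chromosome 17 lay at 0.769 and, from 50000001 to 55000000 next to the limit, at 0.672. Without them the region had a ratio of 0.518, which is lower by construction since they were chosen after their values were seen. On chromosome 15 the lowest blocks were those from 63000001 to 68000000, at 0.336 (Poisson 95% interval 0.322 to 0.349), and from 73000001 to 78000000, at 0.346 (0.333 to 0.360). The block between them stood at 0.489 (0.472 to 0.507). The distal block from 103000001 to 108000000 was the densest of the region in counts, with 161 distinct tags per bin, but its repeated share was also the highest at 11.6%, and its matched ratio of 0.514 lay near the median over blocks of 0.489.

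**Figure D4:**
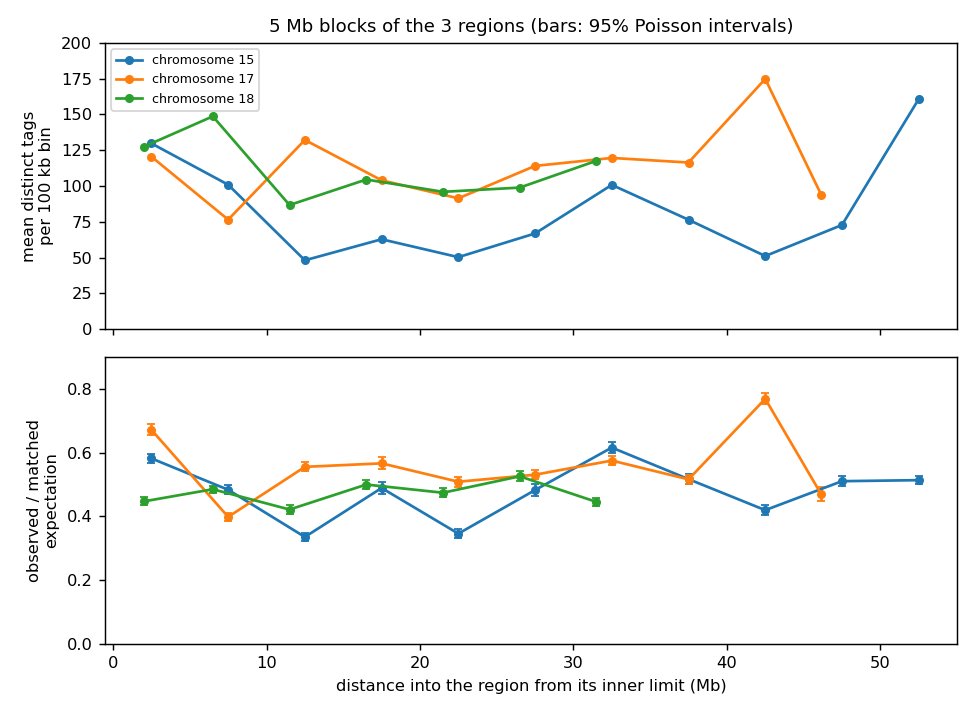
Mean distinct tags per 100 kb bin (upper panel) and matched ratio with 95% Poisson intervals (lower panel) in 5 Mb blocks of the 3 regions, against distance into the region from its inner limit in Mb. Blocks with under 20 kept bins are not drawn. Counts on chromosome 15 span 48.1 to 161, whereas matched ratios of the chromosome 18 blocks stay between 0.422 and 0.526.

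The limits of the regions had been set on bins of 1 Mb, and the steps were placed more finely. The average over 10 Mb on either side of the limit changed from 1.08 to 0.538 on chromosome 15, from 1.04 to 0.529 on chromosome 17 and, in the other direction, from 0.480 to 1.01 on chromosome 18. The lower side was 0.4996, 0.507 and 0.474 times the higher one. The 2 levels on either side of a fitted change point gave 0.502, 0.464 and 0.497 with bins within 10 Mb of the limit. With bins within 5 Mb of it they gave 0.630, 0.594 and 0.506. The position, the bins or both changed between these values, so the size depended on how it was taken. Of 1917 whole-Mb positions on the other autosomes, 5.58% had flanks that differed past 0.75. The limits had been set where the adjusted density of this library changes, so these values are a description and nothing is read from that share. Values of 0.507 or less were found at 5 of those positions, all on chromosome 8 and with flanks that can overlap, with a lowest value of 0.452 at 67 Mb.

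A change point of 2 levels, fitted to the log2 ratios of 100 kb bins within 10 Mb of each limit, fell at 52900001 on chromosome 15. Positions from 52500001 to 53200001 kept at least 95% of the best reduction of the sum of squares. On chromosome 18 it fell at 34600001, with such positions from 34300001 to 34900001. These ranges were 0.7 Mb and 0.6 Mb wide, but with all bins of the chromosome in the fit they widened to 4 Mb and 4.3 Mb around steps at 53100001 and 34600001. On chromosome 17 the best position was 54500001, but the range went back to 50000001. Between 52000001 and 54200000 lay 4 of the runs at 0.75 or more of the expectation. With bins within 5 Mb, or with all bins of the chromosome, the best position was 50000001. The range was then the single position 50000001 with bins within 5 Mb, and 48900001 to 50600001 with all bins. The 4.6 Mb range of the fit within 10 Mb held only 4 separate positions, so the step of chromosome 17 fell at 50 Mb or near 54.5 Mb according to the bins fitted.

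**Figure D5:**
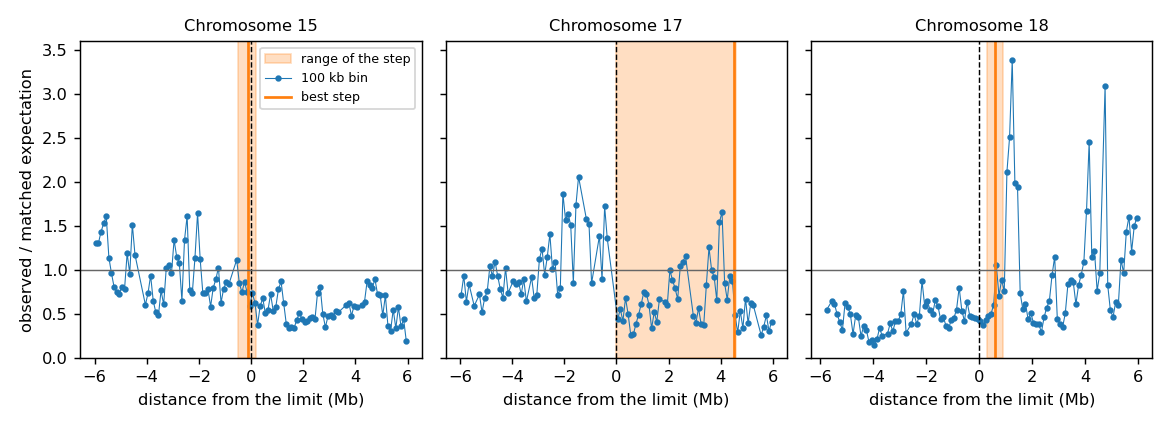
Ratio of 100 kb bins to the matched expectation (vertical axis, linear) within 6 Mb of the limit of each region (dashed line), against distance in Mb. The orange line is the best change point and the shaded band holds the positions that kept at least 95% of the best reduction of the sum of squares. The band is narrow on chromosomes 15 and 18 and spans 4.6 Mb on chromosome 17, where only 4 positions in it met that rule.

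Levels next to the limits were then read in smaller pieces. In the 1 Mb just outside and just inside the limit, the ratio was 0.818 and 0.589 on chromosome 15. Pieces of 500 kb were uneven on both sides. They gave 0.800 from 51000001, 0.826 from 51500001, 0.924 from 52000001 and 0.758 from 52500001 outside the limit. Inside it they gave 0.6005, 0.578 and 0.602 up to 54500000, then 0.407, and the ratio came back to 0.794 from 57500001. On chromosome 17 the corresponding 1 Mb pieces gave 1.25, from 5 kept bins, and 0.458, from 10, and a stretch without tags lay between them. Farther in, the 500 kb pieces came back to 0.875 from 52000001, 0.874 from 52500001, 1.07 from 53500001 and 0.981 from 54000001, with 0.520 between them from 53000001, and lay at 0.455 from 54500001. The bins from 49800001 to 50000000 held 0 tags, and the bin before them held 72 distinct tags. On chromosome 18 the 1 Mb inside the limit had a ratio of 0.523 and the 1 Mb outside it 0.634.

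In bins of 10 kb within 1 Mb of the 100 kb step, the best position was 52840001 on chromosome 15, 54470001 on chromosome 17 and 35000001 on chromosome 18. The last of these marked the edge of a dense piece and not of a level. The 500 kb from 35000001 to 35500000 had a ratio of 2.37, and the next 5 pieces lay at 0.569, 0.381, 0.743, 0.589 and 0.858 before 1.34 was reached from 38000001. Pieces under 0.75 thus occurred, with interruptions, up to 37500000. On chromosome 15 only 52840001 kept 95% of the best reduction. The position was the same with all tags, with either other set of 100 kb bins and with 20 kb bins, but 51060001 with unadjusted counts. The levels fitted in 10 kb bins were 0.879 before it and 0.585 after it, against 1.02 and 0.512 in the 100 kb fit. With 500 kb pieces uneven on both sides, this position too holds only within 1 Mb of the 100 kb step. The 10 kb ranges were 54460001 to 54490001 on chromosome 17 and 34980001 to 35020001 on chromosome 18. They hold only within 1 Mb of the 100 kb step, and on chromosome 17 the position became 49690001 when that step fell at 50 Mb.

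Chromosome X and a segment of chromosome 8 also had low matched levels. Chromosome X lay at 0.504 up to 59 Mb (Poisson 95% interval 0.4997 to 0.509) and at 0.431 beyond it (0.427 to 0.434), and chromosome 8 from 54 to 67 Mb lay at 0.522 (0.514 to 0.529). The regions of chromosomes 15 and 18, at 0.490 and 0.470, fell between these values, and that of chromosome 17, at 0.563, lay above them. In raw counts the chromosome 15 region, with 82.1 distinct tags per bin, resembled the first part of X, with 83.3, and both had low repeated shares, 7.71% and 7.29%. The chromosome 8 segment held 158 per bin with a repeated share of 11.4%. Counts of 158 and 82.1 per bin on chromosomes 8 and 15 thus corresponded to matched ratios of 0.522 and 0.490.

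Other features of the tags were compared last. The plus strand held 49.9% of the distinct tags on chromosome 15 (Clopper-Pearson 95% interval 49.4% to 50.3%), 50.3% on chromosome 17 (49.9% to 50.8%) and 49.9% on chromosome 18 (49.3% to 50.4%), so no imbalance of the strands was detectable. The distance between plus-strand and minus-strand 5′ ends with the most pairs was 169 bp, 168 bp and 174 bp in the regions and 167 bp on the other autosomes. The repeated tags entered the choice of the regions, so their multiplicity is a description. Positions with 2 tags made up 6.44%, 7.23% and 8.08% of the occupied positions and those with 3 or more 0.870%, 1.00% and 1.17%. In the rest of the chromosomes these shares were 8.49%, 8.77% and 8.07% for 2 tags and 1.29%, 1.36% and 1.25% for 3 or more. On the other autosomes they were 8.95% and 1.46%. No position in the regions had more than 7 tags, against 20 on the other autosomes, which hold far more positions.

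Pairs of plus-strand and minus-strand ends at 167 bp, within 10 bp, were counted against the level at 400 to 600 bp. In the chromosome 15 region there were 874 such pairs against 339.9, an excess of 2.45 per 100 plus-strand tags (Poisson 95% interval 2.19 to 2.72). The excess was 3.303 on chromosome 17 (3.01 to 3.61) and 3.71 on chromosome 18 (3.35 to 4.08). In the rest of the 3 chromosomes it was 5.71, 6.20 and 5.19, and on the other autosomes it was 7.003. This scale is not divided by the local tag density, by which the regions were chosen, so these values are a description. The chromosome 8 segment, with a like matched ratio, had an excess of 6.32 (5.74 to 6.93), whereas both parts of X had 2.08 and 2.09. As a multiple of the level at the longer distances, the pairs at 167 bp were 2.57, 2.496 and 2.74 in the regions and 2.29, 2.41 and 2.29 in the rest. They were 2.39 on the other autosomes, 3.48 in the chromosome 8 segment and 2.26 and 2.15 in the parts of X. By this second scale, which divides by the local density, the regions were not below the rest.

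Coverage at small scale was thinner than in the rest of the chromosomes, and its unevenness was measured in windows of 1 kb and 10 kb. Windows of 1 kb without a tag made up 52.4% of the kept bins of the chromosome 15 region, where Poisson counting at the same mean gives 44.0%. On chromosome 17 these values were 42.2% and 31.5%, and on chromosome 18 they were 44.0% and 33.0%. In the rest of the chromosomes the observed shares were 22.1%, 20.4% and 26.0% and the Poisson shares 7.99%, 6.63% and 11.004%. The coefficient of variation of occupied 10 kb bins beyond counting was 0.620, 0.643 and 0.608 in the regions. It was 0.562, 0.540 and 0.626 in the rest and 0.754 on the other autosomes. The relative unevenness was thus slightly higher than the rest on chromosomes 15 and 17 and slightly lower on chromosome 18.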

How the data were processed

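Control DNA of PCCl3 cells was sequenced by the authors as 50 bp reads, aligned to rat build rn4 with the MIRO pipeline allowing 2 mismatches, and deposited as a list of tag positions with strand, without normalization. The aligner version is not given in the sources used here, nor is the treatment of reads that align in several places. Tags were counted per 100 kb bin from the deposited positions (6714002 tags in all) with Python 3.11.15, numpy 2.4.6, pandas 2.3.3 and scipy 1.17.1, and plotted with matplotlib 3.10.9. Bins with fewer than 8 occupied 10 kb bins and the last, partial bin of each chromosome were left out. There was 1 group of 1 library, so no test between groups was run. The matched ratio and the step finder in 100 kb bins were tested on simulated data. The simulated bins were independent, with a single sharp step at each limit, so the test does not bear on the positions reported here. The 10 kb step and the ratio to the rest of the chromosome were not simulated. The regions and all lists and measures were chosen with earlier results of these data known. Named bins were the 3 lowest and 3 highest kept bins of each region by ratio to the matched expectation, and steps were least-squares change points. Alternatives were all tags, other bins, filters, limits, means and matching. No rn4 genome, mappability or annotation was used here.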

Additional observations from a re-analysis of the deposited data

How the results depend on the processing

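Matching on the share over 51 bins, leaving out chromosome 10 and leaving out 2 blocks of chromosome 17 were chosen after the values were seen. No ratio of a region reached 1 under any alternative run. A change outside the counting interval is given here in the order of chromosomes 15, 17 and 18 where more than 1 chromosome moved. The ratio to the rest of the chromosome became 0.316 and 0.416 (15 and 17) with all tags, 0.363 and 0.411 (15 and 17) with no bins left out, 0.365, 0.432 and 0.528 without bins under 25% of the autosomal median, 0.275, 0.397 and 0.517 with medians, 0.331 and 0.430 (15 and 17) with 1 Mb bins, and 0.441 and 0.495 (17 and 18) with limits at the measured step. The matched ratio became 0.543 and 0.479 (17 and 18) with no bins left out, 0.509 and 0.496 (15 and 18) without bins under 25% of the median, 0.481 and 0.486 (15 and 18) with medians, 0.475, 0.550 and 0.479 with 1 Mb bins, and 0.550 (17) with limits at the step. It became 0.428 and 0.535 (15 and 17) with the share of the bin alone, 0.477 and 0.584 (15 and 17) with the share from alternate 10 kb bins, 0.511, 0.580 and 0.480 with the share over 51 bins, and 0.518 without the 2 blocks of chromosome 17. The 25% rule, which replaces the one on occupied bins, kept 469, 433 and 305 bins in place of 533, 420 and 314, and the matched ratio of chromosome 17 was 0.561. The cause of these changes was not tested. Unadjusted counts moved the step to 51800001 on chromosome 15 and 37900001 on chromosome 18, and the 10 kb step to 51060001, 49690001 and 38040001. The 10 kb step of chromosome 17 also fell at 49690001 with bins within 5 Mb and with all bins of the chromosome. The matched ratio of region over rest ran from 0.419 to 0.5295 on chromosome 15, 0.507 to 0.573 on chromosome 17 and 0.486 to 0.511 on chromosome 18 over its alternatives. The depth limits single bins: the 30 tags of the sparsest bin named on chromosome 15 allow ratios from 0.123 to 0.260. No paired analysis was possible because the design has a single sample.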
